A study of Mus musculus with 23 samples.

Results

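Red pulp macrophages of the spleen were compared between vavCre pups and wild-type pups at postnatal day 7. The comparison used 6 of the 23 libraries of the series, chosen by their labels: 3 named RPM_d7_WT and 3 named RPM_d7_vavCre. All 6 came from C57BL/6 mice, and each library was made from 1000 cells sorted from the spleen. Both groups share strain, tissue, age and sort, and no other allele or treatment is labelled for either. vavCre names a Cre recombinase under the Vav promoter, which is active in blood-forming cells and their descendants. The labels do not state which floxed gene it removed. The design text of the series speaks of remaining cells that lack Pparg. On that reading, the vavCre libraries sampled the macrophages that remained in such pups. Whether each replicate came from its own pup is not labelled, so p-values measure a spread between libraries, which may be technical. That spread was estimated over 12 libraries, these 6 and those of bone marrow macrophages at day 7, fitted together.

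Red pulp macrophages engulf worn red blood cells, break down their heme and return the iron to the blood. The transcription factor SPIC is needed for them to form, and PPARγ, encoded by Pparg, is a nuclear receptor that binds fatty acids and switches on genes of lipid uptake, storage and oxidation. Macrophages read their surroundings through scavenger receptors, lectins, integrins, Fc receptors and G protein-coupled receptors, and the set of such receptors on the surface is one of the ways in which macrophages of different tissues are told apart.

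The spleen libraries held 11618404 to 21744121 reads. Values are the deposited normalised read counts, which do not account for gene length, so levels compare between libraries and not between genes. Macrophage markers were high in every library: the 16 markers of the list summed to 143353 to 158051 in wild type against 203995 to 221806 in vavCre. The 16 red pulp macrophage markers summed to 225910 to 251307 in wild type against 181462 to 196905 in vavCre. At a limma adjusted p under 0.05, 8 of these 16 red pulp markers fell (50%) and 2 rose (12.5%). Over all tested genes the shares were 2.54% lower and 2.98% higher. Without the 10 called red pulp markers the sums overlapped narrowly (76227 to 89900 in wild type against 62444 to 76461 in vavCre). The number of red pulp markers higher became 1 without wild-type replicate 2 or vavCre replicate 3. Pparg itself was read at 1691, 1550 and 2124 in the wild-type libraries and 4002, 2496 and 2613 in the vavCre libraries (log2 change 0.74 ± 0.20, limma adjusted p = 0.0313). The summed value was thus higher in each vavCre library, although the design text describes cells without Pparg. A value summed over a gene cannot show a deleted exon, so it checks no Cre label, and vavCre here means the libraries labelled so. The Pparg call was lost with no filter on low values, by limma without trend and robust moderation or without wild-type replicate 1 or 2 or vavCre replicate 1 (adjusted p from 0.0573 to 0.207). In a bulk library fewer cells of a type and less RNA per cell cannot be told apart.

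Of 15130 tested genes 451 rose in vavCre (2.98%) and 384 fell (2.54%), by limma with an adjusted p under 0.05, so 5.52% were called. A call required no minimum change, and 264 of the rises and 282 of the falls reached 1 log2 unit. In 834 of the 835 called genes (99.9%) the 3 libraries of one genotype all lay above the 3 of the other. Over all tested genes such separation was seen in 11.6% upward and 12.4% downward. Genes called higher made up 11.5% of the summed value of the wild-type libraries and 20.4% of that of the vavCre libraries, while genes called lower went from 11.1% to 4.89%. Counts depended on single libraries: without vavCre replicate 2 or 3 there were 287 and 290 rises, and without wild-type replicate 1 or 2 or vavCre replicate 2 there were 253, 243 and 249 falls. By limma without its intensity trend and robust moderation the counts were 237 and 206. Values are listed in the order of replicates 1, 2 and 3. Errors after ± are SEs for log2 changes and SDs over 3 libraries for levels. The plot of all tested genes shows how the changes spread over the range of levels.

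**Figure D1:**
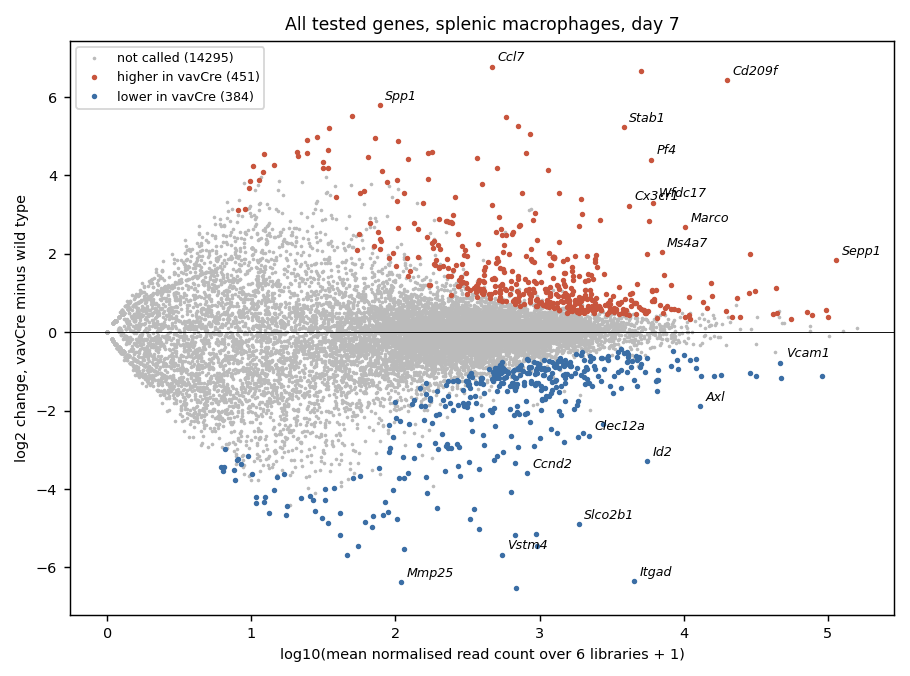
Each point is 1 tested gene, placed by its mean normalised read count over the 6 libraries (horizontal, log10) and its log2 change, vavCre minus wild type (vertical). Red and blue points are the 451 genes called higher and the 384 called lower, and 19 are named. Both directions hold genes at all levels, from Spp1 and Mmp25 at low values to Sepp1 and Vcam1 at high ones.

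Names of gene classes gave a first view of what moved. Genes whose description holds the word "receptor" were called higher in 46 of 829 (5.55%) and lower in 31 (3.74%). Leaving out 1 library in turn left 34 to 40 of the former and 19 to 22 of the latter, with 20 lower without wild-type replicate 2 and 19 without wild-type replicate 3. Descriptions with "kinase" were called higher in 21 of 593 and lower in 13 (3.54% and 2.19%), near the background shares. Leaving out 1 library gave 11 to 16 higher and 8 to 12 lower, with 11 higher without vavCre replicate 2 or 3 and 8 lower without vavCre replicate 3. The plot of gene families sets the shares of each family list beside the shares over all tested genes, 2.98% higher and 2.54% lower. Lists of regulators, metabolism and functions are not in the plot. Their counts below are to be read against the same 2 shares.

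**Figure D2:**
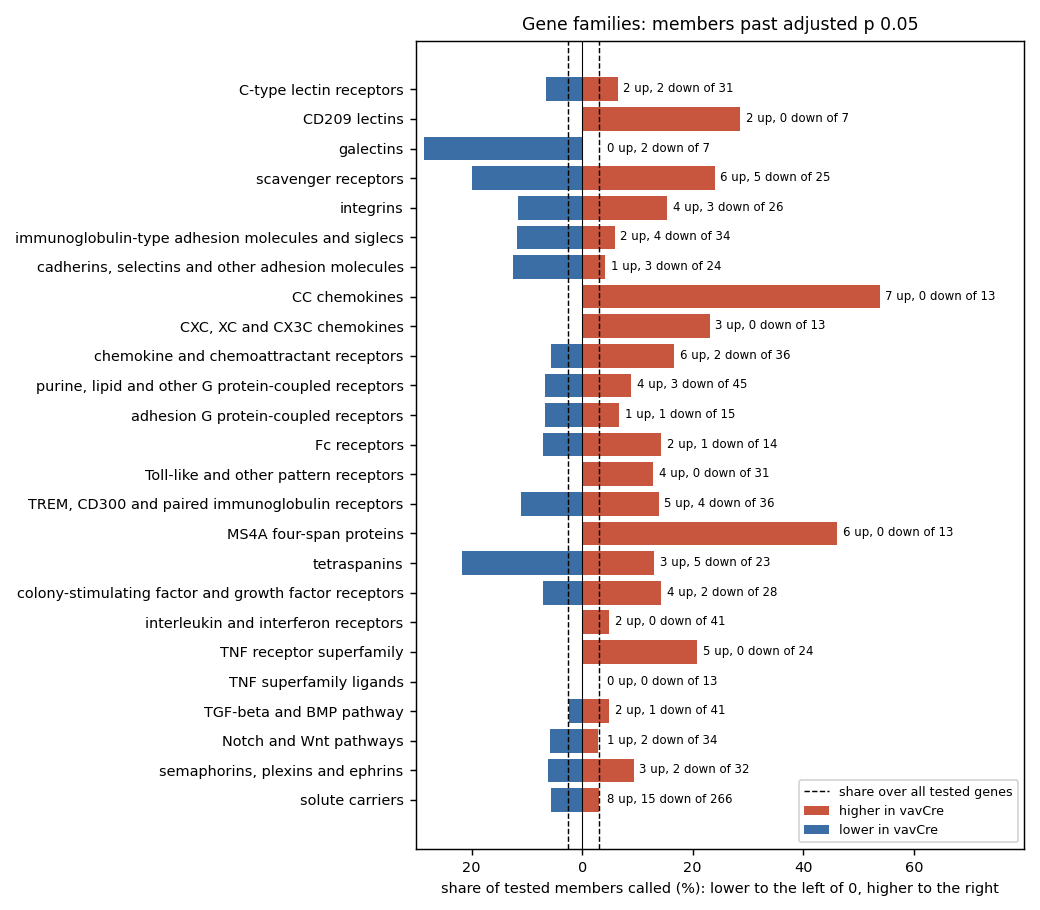
Bars give the percentage of tested members of each family list called higher (red, right) or lower (blue, left) in vavCre at an adjusted p of 0.05, and the text on the right gives the counts. Dashed lines mark the shares over all 15130 tested genes, 2.98% higher and 2.54% lower. CC chemokines (7 of 13) and MS4A proteins (6 of 13) have the tallest bars upward and the galectin list (2 of 7) the tallest downward. Of the galectin list 0 calls held in every fit without 1 library.

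Scavenger receptors, which bind modified lipoproteins, microbes and debris, changed in both directions. In this list 6 of 25 tested members rose and 5 fell. Marco, which binds bacteria and particles, was read at 2616, 2308 and 3480 in wild type and 17920, 16480 and 18840 in vavCre (log2 change 2.68 ± 0.18, limma adjusted p = 1.06e-08). Msr1, the class A receptor for modified lipoproteins, held 1537, 1328 and 1541 in wild type and 4363, 4075 and 3954 in vavCre (log2 change 1.49 ± 0.16, limma adjusted p = 6.42e-06). All 3 vavCre libraries were high for both genes. Cxcl16, a membrane-bound chemokine that also takes up oxidised lipoprotein, rose from 132 ± 54.3 to 613 ± 139 (log2 change 2.26 ± 0.29, limma adjusted p = 3.38e-05). The opposite was read for Stab2, a hyaluronan receptor and paralog of Stab1, with 3371, 3218 and 2772 in wild type and 1238, 1206 and 1383 in vavCre (log2 change -1.29 ± 0.16, limma adjusted p = 2.34e-05). Stab1 rose by a log2 change of 5.22, so the pair of stabilins moved apart. Lrp8, a receptor for apolipoprotein E and reelin, fell from 199 ± 100.5 to 5.80 ± 0.858 (log2 change -4.76 ± 0.74, limma adjusted p = 0.000357). Cd36, the fatty acid translocase, fell by 1.96 on the log2 scale. Cd68, a macrophage marker of the same list, was not called.

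C-type lectins bind sugars on microbes and on dying cells. In the list 2 of 31 tested members rose and 2 fell (6.45% each, against 2.98% and 2.54% over all tested genes). The number higher became 1 without wild-type replicate 1 or 2 or vavCre replicate 1. Clec12a, an inhibitory receptor for uric acid crystals, was read at 3789, 3681 and 3956 in wild type and 482, 627 and 744 in vavCre (log2 change -2.64 ± 0.22, limma adjusted p = 2.11e-07). Every vavCre library was below every wild-type library by a wide gap. Clec4b1 (ENSMUSG00000030147, chromosome 6, 123049962 to 123071555, plus strand, GRCm38) held 806, 628 and 779 in wild type and 29.5, 23.7 and 14.3 in vavCre (log2 change -5.02 ± 0.53, limma adjusted p = 3.83e-06). Its neighbour Clec4n (ENSMUSG00000023349, chromosome 6, 123229843 to 123247021, plus strand), which encodes Dectin-2, a receptor for fungal mannans, went the other way with 8639, 8090 and 11150 in wild type and 24850, 20690 and 20210 in vavCre (log2 change 1.25 ± 0.14, limma adjusted p = 1.13e-05). Between and beside these genes, Clec4a1, Clec4a2, Clec4a3 and Clec4d were not called, so the lectin cluster on chromosome 6 did not move as a block. Among the 7 CD209 lectins 2 rose, Cd209f and Cd209g. Cd209g held 102, 141 and 61.6 in wild type and 11510, 10390 and 7986 in vavCre (log2 change 6.67 ± 0.24, limma adjusted p = 1.47e-12), and as its copy Cd209f is closely related, reads may be shared between them. The other members were not called: Cd209b averaged 126 and 247, Cd209d 32.6 and 33.0, Cd209e 12.8 and 25, Cd209a 1.37 and 5.82 and Cd209c 0 and 0.848 in wild type and vavCre.

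The MS4A genes encode proteins that cross the membrane 4 times and lie side by side on chromosome 19, where the B cell marker CD20 (Ms4a1) is also found. In this family 6 of 13 tested members rose and none fell by limma (0 at an unadjusted p under 0.05, 1 by edgeR and 1 by DESeq2), with a median log2 change of 0.46 against -0.02 over all tested genes. All 6 kept their call without any single library. Ms4a7, a macrophage member, was read at 2465, 2857 and 2912 in wild type and 13010, 10520 and 10470 in vavCre (log2 change 2.04 ± 0.11, limma adjusted p = 3.54e-10). Ms4a6b held 489, 516 and 976 in wild type and 4193, 4308 and 5160 in vavCre (log2 change 2.85 ± 0.22, limma adjusted p = 7.38e-08). For both genes each vavCre library lay far above the highest wild-type library. Ms4a6c rose from 1056 ± 122 to 3818 ± 243 (log2 change 1.86 ± 0.15, limma adjusted p = 1.34e-07). Ms4a6d rose from 1029.7 ± 342 to 3872 ± 189 (log2 change 1.96 ± 0.21, limma adjusted p = 3.83e-06). Ms4a14 changed by 1.87 and Ms4a4a by 1.43 on the log2 scale. The 6 genes lie between positions 11301249 and 11604849 (GRCm38), interleaved with Ms4a4b, Ms4a4c and Ms4a4d, which were not called. Ms4a6b, Ms4a6c and Ms4a6d are near copies of each other, so their reads may be shared. Ms4a1 itself went from a mean of 571 to 385, which was no call, and the B cell marker list summed to 3743 to 7539 in the wild-type libraries against 2624 to 4724 in the vavCre ones.

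Genes on the list of chemokine and chemoattractant receptors were called higher more often than lower. In this list 6 of 36 tested members rose (16.7%) and 2 fell (5.56%), against 2.98% and 2.54% over all tested genes. The number lower became 0 without wild-type replicate 3 or vavCre replicate 1 and 1 without wild-type replicate 2 or vavCre replicate 2. The 2 that fell included Ccr3, whose values are given below with the marker lists. Cx3cr1, the receptor of fractalkine, was read at 827, 692 and 915 in wild type and 7870, 6899 and 7998 in vavCre (log2 change 3.23 ± 0.18, limma adjusted p = 4.49e-10). C3ar1 and C5ar1 encode the receptors of the complement fragments C3a and C5a. C3ar1 held 176, 256 and 211 in wild type and 2800, 2505 and 2196 in vavCre (log2 change 3.55 ± 0.22, limma adjusted p = 2.60e-09). C5ar1 held 33.2, 85.6 and 40.1 in wild type and 2018, 1404 and 1579 in vavCre (log2 change 5.05 ± 0.33, limma adjusted p = 4.24e-09). No library of one genotype reached into the range of the other for these 3 genes. Ptafr, the receptor of platelet-activating factor, rose from 674 ± 129.8 to 2414 ± 154 (log2 change 1.86 ± 0.18, limma adjusted p = 1.69e-06). Cmklr1, the chemerin receptor, changed by 2.24, and S1pr2, a receptor of sphingosine 1-phosphate, by 2.11 on the log2 scale.

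Chemokines, the ligands of such receptors, rose as well. Of the CC chemokines 7 of 13 tested members rose and none fell by limma (2 at an unadjusted p under 0.05, 1 by edgeR and 1 by DESeq2), and of the CXC, XC and CX3C chemokines 3 of 13 tested members rose and none fell by limma (0 at an unadjusted p under 0.05, 0 by edgeR and 0 by DESeq2). Ccl2, Ccl7, Ccl8 and Ccl12 attract monocytes and lie next to one another on chromosome 11, between 82035571 and 82116799 (GRCm38), and all rose. Ccl8 was read at 3.02, 4.16 and 12.3 in wild type and 268, 219.6 and 116 in vavCre (log2 change 4.87 ± 0.55, limma adjusted p = 7.83e-06), and Ccl12 at 13.3, 4.16 and 12.8 in wild type and 364, 132 and 206 in vavCre (log2 change 4.43 ± 0.60, limma adjusted p = 7.34e-05). The wild-type libraries held 37 reads of Ccl8 and 55 of Ccl12 in all. Ccl4, which attracts monocytes and T cells, rose from 94.1 ± 41.1 to 838 ± 129 (log2 change 3.25 ± 0.51, limma adjusted p = 0.000372). Cxcl10, a chemokine that interferon turns on, was read at 465, 365 and 465 in wild type and 3972, 3697 and 2910 in vavCre (log2 change 3.02 ± 0.27, limma adjusted p = 5.52e-07). Pf4 (ENSMUSG00000029373, chromosome 5, 90772435 to 90773383, plus strand), known as platelet factor 4 and also made by macrophages, held 528, 590 and 487 in wild type and 9144, 11010 and 14120 in vavCre (log2 change 4.40 ± 0.18, limma adjusted p = 3.35e-12). Beside it, the list of 15 megakaryocyte and platelet markers, which includes Pf4, summed to 1360.2 to 1762 in the wild-type libraries against 9877 to 14852 in the vavCre ones, and of its 14 tested members Pf4 alone was called. That rise was that of Pf4: the other 14 markers summed to 833 to 1274 against 498 to 733 and were thus lower in each vavCre library than in any wild-type one. In the fits without wild-type replicate 3 or vavCre replicate 2, 2 members of the list were called.

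Complement genes rose beyond the receptors: in the list of components, receptors and regulators 9 of 28 tested members rose (32.1%) and 1 fell (3.57%). Over all tested genes the shares were 2.98% and 2.54%. The number higher became 5 without vavCre replicate 2 or 3, and the number lower became 0 without wild-type replicate 2 or vavCre replicate 3. Cd55, a membrane regulator that speeds the decay of complement convertases, rose from 405 ± 145 to 1365 ± 155 (log2 change 1.82 ± 0.25, limma adjusted p = 9.52e-05). This regulator rose alongside the receptors C3ar1 (3.55) and C5ar1 (5.05). C1qc, a chain of the C1q recognition protein, changed by 0.46, a call that was lost by limma without trend and robust moderation (adjusted p = 0.236).

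Other G protein-coupled receptors split. Of this list 4 of 45 tested members rose and 3 fell. P2ry6, which binds UDP released by dying cells, was read at 376, 425 and 595 in wild type and 2543, 1828 and 2415 in vavCre (log2 change 2.29 ± 0.24, limma adjusted p = 4.11e-06). P2ry12, the ADP receptor, held 854, 899 and 991 in wild type and 1710, 2179 and 2405 in vavCre (log2 change 1.18 ± 0.19, limma adjusted p = 0.000397). Ednrb, the endothelin receptor type B gene, held 13.3, 19.1 and 52.9 in wild type and 847, 1073 and 1526 in vavCre (log2 change 5.48 ± 0.60, limma adjusted p = 5.82e-06). The wild-type libraries were low for Ednrb and the vavCre libraries all high. Gpr34, a lysophosphatidylserine receptor, moved down, with 1432, 751 and 1552 in wild type and 296, 363 and 408 in vavCre (log2 change -1.75 ± 0.29, limma adjusted p = 0.000569). P2ry12 and Gpr34 are both known as microglia genes, and in these libraries they moved in opposite directions.

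Adhesion genes changed in both directions as well. Among integrins 4 of 26 tested members rose and 3 fell, and the number higher became 1 without wild-type replicate 3 or vavCre replicate 2 or 3 and 2 without wild-type replicate 1 or 2, and the number lower became 1 without vavCre replicate 3. Itgal, the αL chain of LFA-1, was read at 172, 169.5 and 345 in wild type and 1629, 1388 and 1721 in vavCre (log2 change 2.86 ± 0.31, limma adjusted p = 5.56e-06). Itgad, the αD chain, held 8529, 10180 and 8060 in wild type and 158, 184 and 42.8 in vavCre (log2 change -6.35 ± 0.91, limma adjusted p = 0.00158), and its call was lost with a pseudocount of 0.1 (adjusted p = 0.0788). Itgam and Itgax, the αM and αX chains that pair with the same β2 chain as αL and αD, moved apart by 1.89 and -3.20, and each of these calls depended on single libraries: Itgam was lost without wild-type replicate 2 or 3 or vavCre replicate 2 or 3 (adjusted p from 0.0574 to 0.108), and Itgax by limma without trend and robust moderation or without wild-type replicate 2 or vavCre replicate 3 (adjusted p from 0.0562 to 0.0644). Cd33, a siglec that binds sialic acid, rose from 332 ± 141 to 1599.7 ± 162 (log2 change 2.34 ± 0.27, limma adjusted p = 1.00e-05), and Cd22, a siglec best known from B cells, rose from 268 ± 50.6 to 691 ± 38.4 (log2 change 1.38 ± 0.26, limma adjusted p = 0.00191). The list of immunoglobulin-type adhesion molecules and siglecs had 2 of 34 members higher and 4 lower, or 2 lower without vavCre replicate 1 or 3. F11r, the junctional adhesion molecule JAM-A, fell from 558 ± 59.7 to 159.9 ± 20.2 (log2 change -1.80 ± 0.34, limma adjusted p = 0.00254).

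The glycoproteins Cd24a, Cd44 and Selplg fell together. Cd24a, a ligand of selectins and siglecs, was read at 6462, 7005 and 6935 in wild type and 2848, 2215 and 2797 in vavCre (log2 change -1.38 ± 0.13, limma adjusted p = 1.60e-06). Cd44, the hyaluronan receptor, held 12450, 12450 and 11430 in wild type and 6567, 6060 and 6257 in vavCre (log2 change -0.94 ± 0.10, limma adjusted p = 3.69e-06). Selplg, which encodes the P-selectin ligand PSGL-1, fell from 3508 ± 573 to 1617 ± 63.8 (log2 change -1.10 ± 0.15, limma adjusted p = 6.32e-05). Sdc4, a heparan sulfate proteoglycan, was the called member of the list of cadherins, selectins and other adhesion molecules that rose (1.79), and 2 members were higher without wild-type replicate 3. Beside these, Cd24a and Cd44 are also made by erythroid cells, whose 25 markers summed to 237706 to 349869 in the wild-type libraries against 123484 to 175195 in the vavCre ones. The part of those cells in the fall of Cd24a and Cd44 was not tested.

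**Figure D3:**
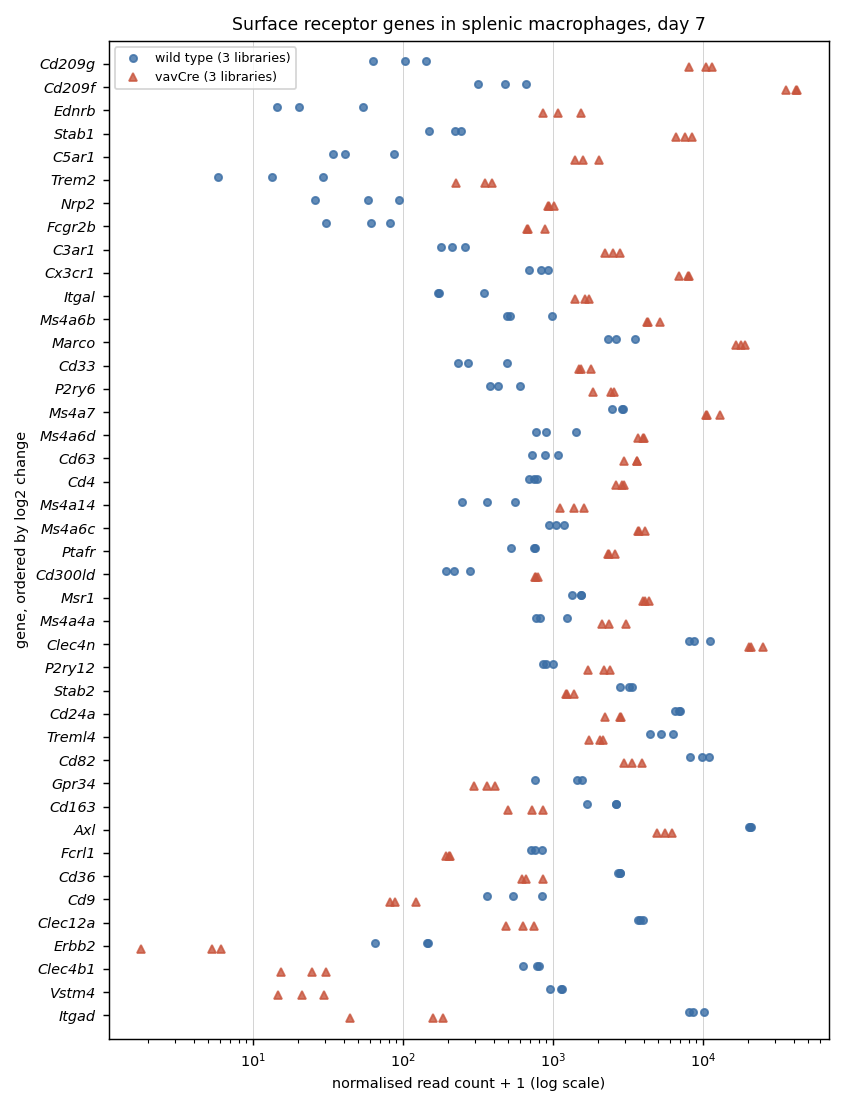
Each row is a surface receptor or membrane protein gene named in the text, ordered by log2 change, with the normalised read count plus 1 on a log axis. Blue circles are the 3 wild-type libraries and red triangles the 3 vavCre libraries. From Cd209g at the top to Itgad at the bottom, no row has overlapping groups. The genes shown were picked among called genes, of which 834 of 835 do not overlap, so this separation follows from the choice.

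Receptors built on immunoglobulin domains, which signal through adaptor proteins, followed. In the list of TREM, CD300 and paired receptors 5 of 36 tested members rose and 4 fell. Trem2, a receptor for lipids and for dying cells, was read at 4.83, 28.2 and 12.3 in wild type and 349, 224 and 391 in vavCre (log2 change 4.58 ± 0.46, limma adjusted p = 2.32e-06). Its adaptor Tyrobp (DAP12) changed by 0.55 on the log2 scale, a call that was lost by limma without trend and robust moderation (adjusted p = 0.103). Cd300ld rose from 229 ± 44.1 to 769 ± 13.3 (log2 change 1.76 ± 0.28, limma adjusted p = 0.000486). On the other side Vstm4 held 1122, 1140 and 956 in wild type and 20.2, 13.6 and 28.6 in vavCre (log2 change -5.68 ± 0.65, limma adjusted p = 1.00e-05), and Treml4, a receptor for late apoptotic cells that marks red pulp macrophages, held 5261, 4429 and 6281 in wild type and 2039, 1729 and 2141 in vavCre (log2 change -1.43 ± 0.22, limma adjusted p = 0.000397). Libraries of the 2 genotypes were far apart for Trem2 and Vstm4, which changed in opposite directions.

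Of 14 Fc receptor genes 2 rose and 1 fell, and 4 rose without wild-type replicate 3. Fcgr2b, the inhibitory IgG receptor, was read at 29.6, 59.8 and 80.3 in wild type and 662, 884 and 679.9 in vavCre (log2 change 3.79 ± 0.39, limma adjusted p = 3.52e-06). Fcrl1 (ENSMUSG00000059994, chromosome 3, 87376387 to 87402934, plus strand), an Fc receptor-like gene known from B cells, held 759.6, 710.5 and 845 in wild type and 204, 191 and 202 in vavCre (log2 change -1.95 ± 0.29, limma adjusted p = 0.000263). The activating receptors Fcgr1, Fcgr3 and Fcgr4 were not called. Among Toll-like and other pattern receptors 4 of 31 tested members rose and none fell by limma (1 at an unadjusted p under 0.05, 1 by edgeR and 1 by DESeq2), and the number higher became 2 without wild-type replicate 1 or 2 or vavCre replicate 2 or 3. Tlr2, a sensor of bacterial lipoproteins, rose from 566 ± 152 to 1329.7 ± 277 (log2 change 1.25 ± 0.21, limma adjusted p = 0.000767).

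Tetraspanins, which organise other receptors in the membrane, leaned downward, with a median log2 change of -0.50. Of these genes 3 of 23 tested members rose and 5 fell; the number higher became 1 without wild-type replicate 2 or vavCre replicate 1. Cd82 was read at 9777, 8109 and 10930 in wild type and 3922, 2950 and 3328 in vavCre (log2 change -1.50 ± 0.14, limma adjusted p = 1.33e-06), and Cd9 at 542, 359 and 835 in wild type and 121, 86.5 and 80.1 in vavCre (log2 change -2.52 ± 0.43, limma adjusted p = 0.000860). Cd63, the tetraspanin of lysosomes, went against both with 883, 718 and 1080 in wild type and 3617, 2958 and 3614 in vavCre (log2 change 1.94 ± 0.15, limma adjusted p = 7.08e-08). The list of galectins, soluble lectins, had 2 of 7 members lower and none higher by limma (0 at an unadjusted p under 0.05, 0 by edgeR and 0 by DESeq2). No fall was left without wild-type replicate 2 or vavCre replicate 2 or 3. The called members were Lgals1 (-0.52), lost by limma without trend and robust moderation or without wild-type replicate 2 or vavCre replicate 2 or 3 (adjusted p from 0.0510 to 0.196), and Lgals2 (-3.35), lost with a filter at 10, with a pseudocount of 0.1, by limma without trend and robust moderation, with the compared groups fitted alone, with a replicate block, by edgeR with TMM scaling, by edgeR with RLE scaling, by DESeq2 or without wild-type replicate 1, 2 or 3 or vavCre replicate 1, 2 or 3 (adjusted p from 0.0535 to 0.298). The 5 members not called were Lgals3, Lgals4, Lgals8, Lgals9 and Lgals3bp, which encodes a galectin-binding protein and no galectin. Lgals3 averaged 4874 in both groups.

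Among receptors for growth factors 4 of 28 tested members rose and 2 fell. Nrp2, a co-receptor for semaphorins and VEGF, was read at 24.8, 92.2 and 57.5 in wild type and 929.8, 916 and 1016 in vavCre (log2 change 4.20 ± 0.35, limma adjusted p = 1.92e-07). Csf2rb, the shared β chain of the receptors for GM-CSF, IL-3 and IL-5, rose from 1084 ± 120.3 to 1847 ± 127 (log2 change 0.77 ± 0.16, limma adjusted p = 0.00402). Csf1r, the receptor on which macrophage survival depends, was not called. Erbb2, a receptor tyrosine kinase, fell from 118 ± 46.9 to 3.39 ± 2.29 (log2 change -4.84 ± 1.01, limma adjusted p = 0.00520). The erythropoietin receptor Epor fell from 1249 ± 56.3 to 508 ± 80.6 (log2 change -1.31 ± 0.20, limma adjusted p = 0.000281). Epor is on the lists of both erythroid and red pulp macrophage markers. The part of erythroid RNA in its fall was not tested. Il13ra1, a chain of the IL-4 and IL-13 receptor, changed by 1.10 and Il21r by 1.58 on the log2 scale. They were the 2 calls among 41 interleukin and interferon receptor genes, both upward (4.88%, against 2.98% over all tested genes). Tnfrsf11a, the receptor RANK, rose from 531 ± 83.9 to 1116 ± 97.2 (log2 change 1.08 ± 0.19, limma adjusted p = 0.000973). Tnfrsf13b, known as TACI, rose from 82.0 ± 50.4 to 322 ± 42.3 (log2 change 2.11 ± 0.38, limma adjusted p = 0.00158). In the TNF receptor family 5 of 24 tested members rose and none fell by limma (0 at an unadjusted p under 0.05, 0 by edgeR and 0 by DESeq2); the number higher became 2 without wild-type replicate 2 or vavCre replicate 2 and 3 without wild-type replicate 1 or 3 or vavCre replicate 1 or 3. None of the 13 TNF family ligands tested rose by limma (3 at an unadjusted p under 0.05, 0 by edgeR and 0 by DESeq2) and none fell (1 at an unadjusted p under 0.05, 0 by edgeR and 0 by DESeq2). Tnfsf12 averaged 85.3 and 158 and Tnfsf13 174.5 and 254.

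Transcription factors set which receptors a macrophage makes. Of 74 macrophage transcription factors 5 rose and 5 fell (6.76% each, against 2.98% and 2.54% over all tested genes). The number higher became 2 without wild-type replicate 1 or vavCre replicate 2 or 3 and 3 without wild-type replicate 2 or 3. Of 30 nuclear receptors Pparg alone was called (3.33%, against 5.52% of all tested genes). Id2, an inhibitor of helix-loop-helix factors, was read at 9511, 10850 and 9920 in wild type and 921, 1029 and 1134 in vavCre (log2 change -3.30 ± 0.16, limma adjusted p = 5.03e-11). Bhlhe40, a repressor, held 312, 402 and 478 in wild type and 36.8, 84.8 and 49.2 in vavCre (log2 change -2.85 ± 0.52, limma adjusted p = 0.00180). Nfkb1 fell from 1669 ± 140.4 to 937 ± 65.5 (log2 change -0.83 ± 0.15, limma adjusted p = 0.00187). Spic fell by 0.69 on the log2 scale, a call that was lost by limma without trend and robust moderation (adjusted p = 0.0924). In the other direction Bach1, a repressor of heme-responsive genes, held 331, 406 and 262 in wild type and 836, 716 and 746 in vavCre (log2 change 1.22 ± 0.25, limma adjusted p = 0.00417). Tgfbr2, the TGF-beta type 2 receptor, rose from 2691 ± 177 to 4401 ± 219 (log2 change 0.71 ± 0.12, limma adjusted p = 0.000788). Of 41 genes of the TGF-beta and BMP pathway 2 rose (4.88%) and 1 fell (2.44%), against 2.98% and 2.54% over all tested genes.

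PPARγ is known to drive genes that take up, store and burn fatty acids. On the list of PPAR targets and fatty acid storage 11 of 44 tested members fell and none rose by limma (6 at an unadjusted p under 0.05, 1 by edgeR and 2 by DESeq2), and the number lower became 6 without wild-type replicate 1 and 7 without wild-type replicate 3. Ech1, an enzyme of fatty acid oxidation, was read at 2283, 2552 and 3250 in wild type and 1683, 1225 and 1192 in vavCre (log2 change -0.98 ± 0.18, limma adjusted p = 0.00167). Etfb, which passes electrons from fatty acid oxidation to the respiratory chain, held 5562, 5180 and 5529 in wild type and 3148, 2343 and 2592 in vavCre (log2 change -1.02 ± 0.13, limma adjusted p = 5.34e-05). In the list of fatty acid oxidation and peroxisome genes 4 of 46 tested members fell and none rose by limma (3 at an unadjusted p under 0.05, 0 by edgeR and 0 by DESeq2), and the median of -0.10 lay near that of all genes. Fabp4, the fatty acid carrier, fell by 4.97 on the log2 scale. Most members of both lists were therefore not called. Elovl5, which elongates polyunsaturated fatty acids, changed by -1.16.

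Genes that LXR turns on for cholesterol efflux leaned upward. Here 8 of 27 tested members rose (29.6%) and 2 fell (7.41%), against 2.98% and 2.54% over all tested genes. The number higher became 3 without wild-type replicate 2 or vavCre replicate 3 and 4 without vavCre replicate 1 or 2 and 5 without wild-type replicate 1 or 3. Abca1, the cholesterol pump, was read at 3622, 4033 and 3927 in wild type and 7913, 7909 and 8523 in vavCre (log2 change 1.07 ± 0.12, limma adjusted p = 1.12e-05). Abca9, another transporter of that family, rose from 495 ± 37.3 to 1476 ± 389 (log2 change 1.54 ± 0.22, limma adjusted p = 0.000109). Apoc1 (ENSMUSG00000040564, chromosome 7, 19689481 to 19692660, minus strand), an apolipoprotein gene beside Apoe, moved against this with 375, 490.3 and 364 in wild type and 50.3, 62.7 and 44.4 in vavCre (log2 change -2.94 ± 0.40, limma adjusted p = 8.08e-05), whereas Apoe rose by 1.12. Among 29 genes of eicosanoids and phospholipases 2 rose and 4 fell. Alox5ap, which feeds arachidonic acid to leukotriene synthesis, rose from 1141 ± 95.5 to 3229 ± 370.0 (log2 change 1.50 ± 0.17, limma adjusted p = 9.03e-06). Pld3, a lysosomal nuclease of the phospholipase D family, fell from 18230 ± 2386 to 8321 ± 29.1 (log2 change -1.12 ± 0.11, limma adjusted p = 1.69e-06).

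Antioxidant genes leaned downward: 2 of 36 tested members rose (5.56%) and 7 fell (19.4%), with a median of -0.28. Over all tested genes the shares were 2.98% and 2.54%. Txn1, thioredoxin, was read at 9195, 10230 and 8216 in wild type and 4245, 3857 and 3687 in vavCre (log2 change -1.23 ± 0.11, limma adjusted p = 5.01e-07). Gpx1, the cytosolic glutathione peroxidase, held 15720, 16880 and 14710 in wild type and 9986, 7085 and 8190 in vavCre (log2 change -0.92 ± 0.12, limma adjusted p = 4.63e-05). Gsto1 fell from 3778 ± 358 to 1582 ± 74.0 (log2 change -1.25 ± 0.20, limma adjusted p = 0.000597). Gpx3, the secreted glutathione peroxidase, moved the other way with 726, 655 and 1207 in wild type and 2774, 2295 and 2360 in vavCre (log2 change 1.57 ± 0.21, limma adjusted p = 7.17e-05), as did Prdx5, a peroxiredoxin (0.85). Sepp1 encodes the selenium carrier selenoprotein P. The list of 38 symbols holds it under its other symbol, Selenop, which did not match, so the counts and median above leave it out. It was named for its level and also rose: it held 46710, 47760 and 56560 in wild type and 167700, 185100 and 185100 in vavCre (log2 change 1.84 ± 0.08, limma adjusted p = 2.71e-11).

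Of 43 tested genes of iron and heme handling 3 rose (6.98%) and 11 fell (25.6%), against 2.98% and 2.54% over all tested genes. The number lower became 7 without vavCre replicate 3. Trf, transferrin, was read at 24160, 19630 and 31100 in wild type and 12760, 9904 and 11930 in vavCre (log2 change -1.10 ± 0.15, limma adjusted p = 0.000102). Alad, an enzyme of heme synthesis, held 1616, 1620 and 1953 in wild type and 795, 627 and 718 in vavCre (log2 change -1.28 ± 0.20, limma adjusted p = 0.000357), and Fech, which inserts iron into heme, fell from 2623 ± 236 to 1262 ± 312 (log2 change -1.08 ± 0.19, limma adjusted p = 0.00139). Cd163, the haemoglobin receptor, changed by -1.75. Slc40a1, the iron exporter ferroportin, changed by 0.33, a call that was lost by limma without trend and robust moderation or without wild-type replicate 2 or vavCre replicate 3 (adjusted p from 0.0555 to 0.387). Cp, the ferroxidase ceruloplasmin, rose from 182 ± 47.0 to 994 ± 103 (log2 change 2.47 ± 0.27, limma adjusted p = 5.15e-06). The enzymes of heme synthesis are strongly expressed by erythroid cells, and of their markers 14 of 25 tested members fell and none rose by limma (0 at an unadjusted p under 0.05, 0 by edgeR and 0 by DESeq2). Without wild-type replicate 1 or 2, 8 of the markers fell. Hbb-bt changed by -1.12, Alas2 by -1.36, Rhag by -1.38 and Car2 by -1.24, and none of the 25 markers was at 0. The part of erythroid RNA in the fall of Alad and Fech was not tested.

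Cell cycle genes moved with the erythroid markers. Of 39 tested members 1 rose (2.56%) and 14 fell (35.9%), against 2.98% and 2.54% over all tested genes. The number lower became 8 without wild-type replicate 1 or 3 or vavCre replicate 2 and 9 without wild-type replicate 2 or vavCre replicate 3. Ccnd2, cyclin D2, was read at 1393, 1448 and 1656 in wild type and 234, 134 and 57.9 in vavCre (log2 change -3.60 ± 0.42, limma adjusted p = 1.09e-05). Rrm2, a subunit of ribonucleotide reductase, fell from 2025 ± 350.0 to 791 ± 177 (log2 change -1.37 ± 0.22, limma adjusted p = 0.000445), Tk1, thymidine kinase, fell from 1813 ± 262 to 784 ± 168 (log2 change -1.22 ± 0.21, limma adjusted p = 0.000860), and Top2a changed by -1.11. Cdkn1a, the cell cycle inhibitor p21, rose from 149 ± 21.7 to 922 ± 82.8 (log2 change 2.62 ± 0.24, limma adjusted p = 8.71e-07). Erythroblasts divide, their summed markers were lower in every vavCre library, and their part in these falls was not tested.

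Lysosomes digest what macrophages engulf. Of proteases, hydrolases and membrane proteins of the lysosome 15 of 49 tested members rose (30.6%, against 2.98% over all tested genes). None fell by limma (4 at an unadjusted p under 0.05, 0 by edgeR and 1 by DESeq2). The median log2 change was 0.33, and the number higher became 9 without wild-type replicate 1 or 2 or vavCre replicate 2. Ctsc (ENSMUSG00000030560, chromosome 7, 88278085 to 88310888, plus strand), the protease that activates other proteases of granules, was read at 18470, 18770 and 23580 in wild type and 44910, 39100 and 41630 in vavCre (log2 change 1.05 ± 0.09, limma adjusted p = 4.66e-07). Ctsh, another cathepsin, rose from 4105 ± 432 to 8666 ± 528 (log2 change 1.08 ± 0.11, limma adjusted p = 3.69e-06). Cst3, the inhibitor cystatin C, changed by 0.63, and its call was lost by limma without trend and robust moderation (adjusted p = 0.0556). Grn, progranulin, held 19350, 16290 and 21440 in wild type and 40300, 35030 and 37890 in vavCre (log2 change 0.99 ± 0.10, limma adjusted p = 2.32e-06). These are modest shifts at high read numbers. Of subunits of the vacuolar ATPase, the pump that acidifies lysosomes, 5 of 17 tested members rose and none fell by limma (0 at an unadjusted p under 0.05, 0 by edgeR and 0 by DESeq2), and the number higher became 1 without vavCre replicate 3 and 2 without wild-type replicate 1, 2 or 3 or vavCre replicate 1 and 3 without vavCre replicate 2. Atp6ap2, an accessory subunit, kept its call without any single library (log2 change 1.04 ± 0.11, limma adjusted p = 5.34e-06).

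Receptors and bridging proteins for the engulfment of dying cells changed in both directions, with 8 of 38 members higher and 5 lower. Gas6, which bridges dying cells to receptors of the AXL and MERTK family, was read at 469.5, 420.5 and 619.7 in wild type and 3208, 3240 and 3280 in vavCre (log2 change 2.70 ± 0.17, limma adjusted p = 3.89e-09). Axl, one of its receptors, held 20680, 20230 and 20460 in wild type and 5596, 6175 and 4940 in vavCre (log2 change -1.88 ± 0.16, limma adjusted p = 2.11e-07). The ligand thus rose while this receptor fell, and Mertk was not called. Anxa2, an annexin that binds phospholipids, fell from 2843 ± 605 to 779 ± 102 (log2 change -1.85 ± 0.23, limma adjusted p = 2.99e-05).

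Of 19 genes of class I antigen presentation 4 rose and 1 fell. H2-K1 was read at 10340, 10970 and 11170 in wild type and 23680, 20390 and 17610 in vavCre (log2 change 0.92 ± 0.12, limma adjusted p = 6.99e-05), H2-D1 changed by 0.87 and H2-T23 by 1.08, and class I genes are similar enough for reads to be shared. Cd1d1, which presents lipids to NKT cells, went down, with 1379, 1237 and 1368 in wild type and 642, 476 and 462 in vavCre (log2 change -1.35 ± 0.26, limma adjusted p = 0.00288). Class II differed: of 16 members Ifi30 (ENSMUSG00000031838, chromosome 8, 70762774 to 70766663, minus strand), a lysosomal thiol reductase, alone was called, with 0.78, and that call was lost by limma without trend and robust moderation (adjusted p = 0.0503). H2-Aa averaged 649 and 314 without a call. None of the 16 fell by limma (3 at an unadjusted p under 0.05, 0 by edgeR and 0 by DESeq2), although their median log2 change was -0.83. In marrow 1 of them was called higher and 6 lower. Of 44 interferon response genes 8 rose and 1 fell, and the number lower became 0 without wild-type replicate 1, 2 or 3 or vavCre replicate 2 or 3. Ifitm3, which blocks viral entry, rose from 470.1 ± 169.8 to 1854 ± 196 (log2 change 2.03 ± 0.30, limma adjusted p = 0.000183). Ly6e changed by 1.22, Gbp7 by 1.30, Ifitm2 by 1.67 and Bst2 by 1.33. Il10, an anti-inflammatory cytokine, rose from 17.2 ± 8.13 to 211 ± 81.7 (log2 change 3.56 ± 0.60, limma adjusted p = 0.000743), and Il18, an inflammatory one, fell from 6485 ± 451 to 3499 ± 532 (log2 change -0.90 ± 0.13, limma adjusted p = 0.000149).

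Among secreted proteins and proteases 10 of 61 members of the list rose and 2 fell. Wfdc17 was read at 1080, 1208 and 1104 in wild type and 10550, 11670 and 11250 in vavCre (log2 change 3.30 ± 0.13, limma adjusted p = 3.35e-12). Spp1, osteopontin, held 3.02, 2.49 and 0.456 in wild type and 142, 182 and 130.1 in vavCre (log2 change 5.79 ± 0.57, limma adjusted p = 1.94e-06). The wild-type libraries held 9 reads of Spp1 in all, so the size of that change is uncertain. Mmp14, a membrane-bound metalloproteinase, rose from 61.2 ± 5.14 to 431 ± 56.3 (log2 change 2.79 ± 0.24, limma adjusted p = 3.17e-07), and Timp2, an inhibitor of such proteinases, rose from 2802 ± 148 to 6615 ± 135 (log2 change 1.24 ± 0.15, limma adjusted p = 1.86e-05). Mmp25, another membrane-bound metalloproteinase, fell from 215 ± 28.3 to 2.31 ± 2.58 (log2 change -6.37 ± 1.03, limma adjusted p = 0.000514), with 9 reads left in the vavCre libraries.

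Solute carriers move nutrients, ions and drugs across membranes. Of 266 solute carriers 8 rose (3.01%) and 15 fell (5.64%), against 2.98% and 2.54% over all tested genes. The share that rose was thus near that of all genes. The number higher became 4 without vavCre replicate 3 and 5 without wild-type replicate 2 or vavCre replicate 2. Slco2b1, an organic anion transporter, was read at 3861, 3433 and 3572 in wild type and 125, 111 and 125 in vavCre (log2 change -4.90 ± 0.26, limma adjusted p = 3.54e-10). Slc1a3, a glutamate transporter, held 862, 936 and 798 in wild type and 134, 81.4 and 63.5 in vavCre (log2 change -3.27 ± 0.39, limma adjusted p = 1.56e-05), and Slc15a3, a peptide and histidine transporter of lysosomes, held 1657, 1978 and 1688 in wild type and 817, 490.1 and 551 in vavCre (log2 change -1.55 ± 0.22, limma adjusted p = 0.000139). All 3 carriers were lower in each vavCre library. Slc43a3 changed by -1.33 and Slc7a8 by -0.87 on the log2 scale. Of 42 ion channels 3 rose (7.14%) and 5 fell (11.9%). The number lower became 2 without vavCre replicate 1 and 3 without wild-type replicate 2 or vavCre replicate 2. Kcnj10, an inward rectifier of potassium, fell from 3315 ± 125 to 1277 ± 112 (log2 change -1.38 ± 0.18, limma adjusted p = 5.47e-05), and Hvcn1, the proton channel, changed by -1.87. The endolysosomal channels Tpcn1 and Mcoln2 rose, by 2.21 and 1.31.

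Several of the largest changes fell outside the receptor families. Cox6a2, a subunit of cytochrome c oxidase best known from heart and skeletal muscle, was read at 599, 785 and 516 in wild type and 30.7, 28.0 and 11.9 in vavCre (log2 change -4.78 ± 0.46, limma adjusted p = 1.57e-06). Mrap, an accessory protein of the ACTH receptor, held 1274, 1074 and 1571 in wild type and 36.8, 69.5 and 16.7 in vavCre (log2 change -5.16 ± 0.84, limma adjusted p = 0.00103). Hs3st2, which adds sulfate to heparan chains, held 512, 696 and 801 in wild type and 42.4, 28.8 and 18.2 in vavCre (log2 change -4.50 ± 0.82, limma adjusted p = 0.00169). All 3 genes were low in each vavCre library, and none of them lost its call under any alternative. Sh2d1b1, an adaptor of SLAM family receptors, fell from 1356 ± 111 to 15.2 ± 7.89 (log2 change -6.54 ± 0.94, limma adjusted p = 0.000169). Its call was lost with a pseudocount of 0.1 (adjusted p = 0.0907). Mpzl1, a membrane protein of the myelin P0 family, fell from 1802 ± 169.5 to 79.5 ± 66.5 (log2 change -5.14 ± 0.67, limma adjusted p = 4.70e-05). Its call was lost with the compared groups fitted alone (adjusted p = 0.0588). Lrrn3, a membrane protein with leucine-rich repeats, fell from 223 ± 115 to 5.66 ± 5.53 (log2 change -5.53 ± 1.00, limma adjusted p = 0.00148). Upward, Pmp22, a membrane protein of myelin, was read at 64.0, 10.8 and 42.9 in wild type and 607, 744 and 748 in vavCre (log2 change 4.43 ± 0.64, limma adjusted p = 0.000149). Tox2, a nuclear protein of the HMG-box family, held 4.23, 15.8 and 27.8 in wild type and 303, 463 and 252 in vavCre (log2 change 4.59 ± 0.79, limma adjusted p = 0.000892). Lyz2, the lysozyme of macrophages, rose from 11981 ± 3791 to 45993 ± 924 (log2 change 1.99 ± 0.18, limma adjusted p = 2.32e-06), among the high-level genes that changed.

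Promoters were searched for the binding letters of 4 kinds of factor, in RefSeq windows (GRCm38.p6) from 250 bases before to 50 bases after each gene start, on both strands. Windows matched 11116 of the tested genes, 336 of those called higher and 290 of those called lower. GAGGAAGT, an ETS site that PU.1 and SPIC can read, stood in 3.78% of the tested, 5.95% of the higher and 5.17% of the lower genes. An interferon response element, written as 2 GAAA runs with any 2 bases between them, stood in 3.82%, 7.14% and 4.48%, and TCACGTGA, an E-box of the MiT/TFE factors of lysosome genes, in 1.94%, 2.08% and 0.690%. A strict form of the PPAR response element, 2 AGGTCA sites with any 1 base between them, stood in 4 tested windows (0.0360%), 1 of a gene that rose and none of a gene that fell. Over all windows of the table the shares were 3.20%, 3.44%, 0.974% and 0.0396% for the 4 motifs in this order. The motifs do not overlap in the sequences shown, a match is a description and not a binding site, and no match says only that these letters are not in the window. Printed are the 250 bases before the start of 5 genes whose values are given here, 5′ to 3′ on the gene's strand, with the matched ETS or interferon letters in capitals.
Pf4 (chr5:90772185-90772434, plus strand): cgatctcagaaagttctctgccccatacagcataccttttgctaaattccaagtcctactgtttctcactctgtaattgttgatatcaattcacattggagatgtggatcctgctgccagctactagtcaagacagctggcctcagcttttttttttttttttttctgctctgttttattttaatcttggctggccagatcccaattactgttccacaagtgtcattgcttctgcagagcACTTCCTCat
Ctsc (chr7:88277835-88278084, plus strand): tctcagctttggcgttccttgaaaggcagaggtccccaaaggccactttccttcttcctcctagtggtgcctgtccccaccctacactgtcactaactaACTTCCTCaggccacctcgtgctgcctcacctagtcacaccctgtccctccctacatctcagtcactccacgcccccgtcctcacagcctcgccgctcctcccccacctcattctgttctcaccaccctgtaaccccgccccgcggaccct
Fcrl1 (chr3:87376137-87376386, plus strand): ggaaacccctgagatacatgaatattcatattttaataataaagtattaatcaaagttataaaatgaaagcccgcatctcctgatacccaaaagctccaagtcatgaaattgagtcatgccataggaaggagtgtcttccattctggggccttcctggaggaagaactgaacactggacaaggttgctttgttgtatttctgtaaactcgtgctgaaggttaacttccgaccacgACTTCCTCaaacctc
Cxcl10 (chr5:92348890-92349139, minus strand): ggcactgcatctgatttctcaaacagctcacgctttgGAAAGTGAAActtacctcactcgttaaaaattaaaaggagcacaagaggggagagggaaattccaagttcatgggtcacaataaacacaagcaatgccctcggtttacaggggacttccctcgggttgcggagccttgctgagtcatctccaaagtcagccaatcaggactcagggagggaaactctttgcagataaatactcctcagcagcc
Clec4b1 (chr6:123049712-123049961, plus strand): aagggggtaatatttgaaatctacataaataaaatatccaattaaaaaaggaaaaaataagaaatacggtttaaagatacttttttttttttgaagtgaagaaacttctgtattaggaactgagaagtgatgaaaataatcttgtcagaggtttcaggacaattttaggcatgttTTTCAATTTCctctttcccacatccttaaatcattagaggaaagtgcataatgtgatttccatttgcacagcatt
Pf4, Ctsc and Fcrl1 hold the ETS letters on the strand opposite to the gene, and Cxcl10 and Clec4b1 the interferon letters, so either motif was found in a gene that rose and in one that fell.

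Markers of cells other than macrophages were read beside these changes, and each list was also summed without its called members, a step chosen after the values were seen. Neutrophil markers (19 genes) summed to 699.6 to 2979 in the wild-type libraries against 3087 to 6374 in the vavCre ones, and 2 rose by limma, Mmp8 and Retnlg, where the number higher became 0 without wild-type replicate 1 or vavCre replicate 1 or 3 and 1 without wild-type replicate 2 or 3 or vavCre replicate 2. Without those 2 genes the sums were 696 to 2979 against 2992 to 6172, which did not overlap. T and NK cell markers (15 genes) summed to 879 to 1612 in the wild-type libraries against 2662 to 3449 in the vavCre ones, where 1 member was called, or 2 without vavCre replicate 3. Cd4, the called member, held 740.2, 683 and 776 in wild type and 2966, 2851 and 2621 in vavCre (log2 change 1.94 ± 0.17, limma adjusted p = 4.86e-07). Without Cd4, which is also made by some macrophages, the sums overlapped (138 to 929 against 41.2 to 483). Monocyte markers (14 genes) summed to 5078 to 6386 in the wild-type libraries against 1695 to 2354 in the vavCre ones and 2 of them fell, Ear2, which changed by -2.57, and Cd300e. Without these the sums overlapped (1538 to 2127 against 1126 to 1676). Most of the summed value of the eosinophil, basophil and mast cell markers was Ccr3, the eotaxin receptor, which is also on the list of red pulp macrophage markers. Ccr3 held 8818, 8707 and 9963 in wild type and 2920, 4817 and 4416 in vavCre (log2 change -1.21 ± 0.28, limma adjusted p = 0.0137), a call that was lost by limma without trend and robust moderation, by edgeR with TMM scaling, by edgeR with RLE scaling or without wild-type replicate 3 or vavCre replicate 1 (adjusted p from 0.0646 to 0.153). The other 13 genes of that list summed to 92.2 to 1024 against 61.1 to 71.8, with Ear6, Epx and Fcer1a at 0 in all 6 libraries. Endothelial and stromal markers summed to 4882 to 6428 in the wild-type libraries against 2222 to 3201 in the vavCre ones, and the 2 that fell were Stab2 (-1.29) and Pecam1 (-1.34). Pecam1, an adhesion molecule of endothelial cells and leukocytes, lost its call with no filter on low values, by limma without trend and robust moderation, with a replicate block or without wild-type replicate 1, 2 or 3 or vavCre replicate 1, 2 or 3 (adjusted p from 0.0592 to 0.156). Without these 2 the sums overlapped (479 to 2349 against 571 to 1397). Dendritic cell markers (14 genes) summed to 5321 to 6163 in the wild-type libraries against 6188 to 7981 in the vavCre ones, and without the called Bst2 and Itgax, the former also an interferon response gene, the sums overlapped (3926 to 5101 against 4497 to 5542). The part of such cells in these changes was not tested. The plot of marker lists gives each library.

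**Figure D4:**
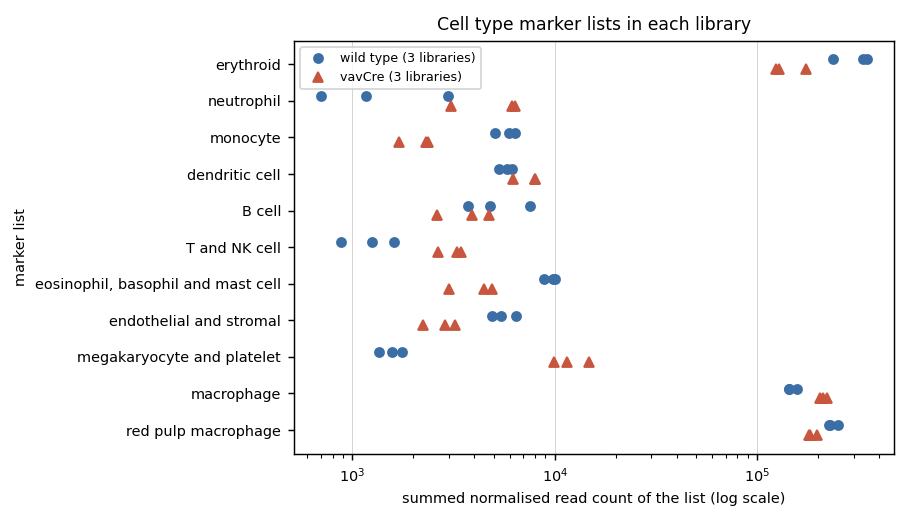
Each row is a list of cell type markers, placed by the summed normalised read count of its members on a log axis, with blue circles for the 3 wild-type and red triangles for the 3 vavCre libraries. Erythroid sums are lower in every vavCre library (123484 to 175195 against 237706 to 349869), and macrophage sums are higher (203995 to 221806 against 143353 to 158051). These sums include called members, and without its 5 called members the macrophage sums overlapped (107495 to 119592 against 115473 to 138309).

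Macrophages of the bone marrow from the same table (3 wild-type and 3 vavCre libraries of 4262473 to 10846449 reads, also C57BL/6 at day 7) showed where the splenic changes differ between tissues. In marrow 7.81% of tested genes were called, 3.41% higher and 4.4% lower. Of the 835 splenic calls 517 (61.9%) were also called in the same direction in marrow, which is 43.7% of the 1182 marrow calls, and 1 gene, Timd4, was called in opposite directions. Timd4, a phosphatidylserine receptor, changed by 0.98 in spleen and -0.95 in marrow (difference 1.93 ± 0.27, limma adjusted p = 0.00259), and its splenic call was lost by limma without trend and robust moderation (adjusted p = 0.0974). A test of the difference between the tissues called 17 genes with a more positive change in spleen (0.112%) and 1, Gpr34, with a more negative one (0.00661%). Leaving out any 1 of the 12 libraries gave 11 to 23 and 0 to 1 such genes, with 11 without wild-type replicate 1 of spleen, wild-type replicate 3 of marrow or vavCre replicate 1 of marrow. By limma without trend and robust moderation no gene was called in either direction (916 at an unadjusted p under 0.05), and edgeR called 29 and 2. Stab1 changed by 5.22 in spleen and 3.19 in marrow (difference 2.03 ± 0.25, limma adjusted p = 0.000584). Cd209f changed by 6.43 and 3.45 in this order (difference 2.97 ± 0.32, limma adjusted p = 0.000482). For Pf4 the changes were 4.40 and 2.34 (difference 2.05 ± 0.25, limma adjusted p = 0.000584). Ccl7 changed by 6.77 and 2.99 (difference 3.78 ± 0.73, limma adjusted p = 0.0484). These genes rose in spleen by more than in marrow. Gpr34 changed by -1.75 in spleen and 0.42 in marrow (difference -2.17 ± 0.40, limma adjusted p = 0.0364). The plot of changes in spleen and marrow marks 10 named genes.

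**Figure D5:**
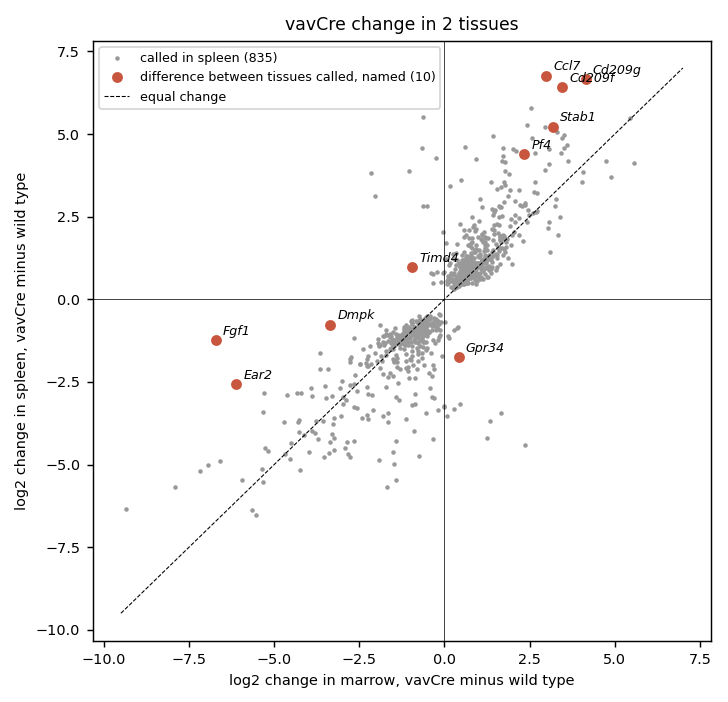
Each grey point is 1 of the 835 genes called in spleen, placed by its log2 change (vavCre minus wild type) in marrow (horizontal) and in spleen (vertical), and the dashed line marks equal change. Red points are 10 named genes whose change differed between tissues (adjusted p under 0.05). Most grey points lie in the quadrants of equal sign, with Timd4 among the exceptions.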

How the data were processed

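RNA of 12 libraries in 4 groups of 3 (wild type and vavCre, spleen and bone marrow, day 7) was analysed. The authors deposited normalised read counts per gene, a signal not scaled by gene length. Per the submitters' processing notes, the tools were STAR and edgeR and the genome build was GRCm38. The counting tool and strand setting are not given in the sources used here, so reads of overlapping or antisense genes, and of close paralogs, may be shared. Dividing each library by its smallest step gave whole reads for 97.7% to 100% of values up to 500 reads (within 0.1 read), so depth could be recovered: 11618404 to 21744121 reads in spleen and 4262473 to 10846449 in marrow. The unit was read from the values, and because they are normalised, limma was used as planned for such values.

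A gene entered the test when 2 or more libraries reached a value of 1. Tests used limma 3.58.1 (R 4.3.3) on log2(value + 1), with an intensity trend and robust moderation, over all 12 libraries (8 residual degrees of freedom), with Benjamini-Hochberg adjustment over all genes and a threshold of 0.05. Fold changes on this scale understate the change of low genes. Alternatives used edgeR 4.0.16, which called 476 genes higher and 411 lower on the recovered reads, and DESeq2 1.42.0, other filters (no filter, at least 10), pseudocounts of 0.1 and 5, a replicate block, the compared groups alone, a minimum change of 1 log2 unit, and leaving out each library.

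Members and the 61 gene lists were chosen with earlier results of these data known. Named were, by a fixed rule, the 25 largest rises and falls with groups that do not overlap and a mean of at least 20, the 12 highest-level calls each way, up to 6 called members of each list by smallest p (or the 2 at the highest level where none was called), families of up to 10 in full, Pparg and Spic, and the 10 largest differences between tissues each way. Further genes named only as not called were added after their values were seen. Coordinates are 1-based from the GENCODE mouse annotation on GRCm38, where 22214 of 22524 genes matched. Promoter sequences are from RefSeq (GRCm38.p6), and those on chromosome 18 were not searched. Some genes that the rule selects are not reported here.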

Additional observations from a re-analysis of the deposited data

Results flagged for a closer look

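The vavCre effect differed between spleen and marrow, by a test of the difference itself, for 10 genes named here, with values as log2 change in spleen minus that in marrow. Fgf1, a fibroblast growth factor, differed by 5.49. Its mean went from 150.6 to 64.5 in spleen, which was no call, and from 183 to 0.808 in marrow. In the marrow vavCre libraries 1 read is a value of 1.21 to 2.26, so that mean was below 1 read per library. The size of the difference for Fgf1 is therefore uncertain. Dmpk, a protein kinase, differed by 2.59, with means of 551 and 324 in spleen, which was no call, and of 564 and 57.1 in marrow. Ear2, an eosinophil-associated ribonuclease also made by monocytes, differed by 3.55 and fell in both tissues. In these 3 genes the marrow libraries changed more.

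The genes Ccl7 (3.78), Cd209f (2.97), Cd209g (2.52), Pf4 (2.05) and Stab1 (2.03) rose in both tissues and more in spleen. Timd4 (1.93) rose in spleen and fell in marrow. Gpr34 (-2.17) fell in spleen, and in marrow its means of 494 and 658 were no call. The test of the difference called 0 genes by limma without trend and robust moderation, where 916 had an unadjusted p under 0.05, and edgeR called 29 and 2.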

How the results depend on the processing

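Of 451 rises and 384 falls in spleen, limma without trend and robust moderation called 237 and 206, and DESeq2 called 689 and 601. With the compared groups fitted alone there were 670 and 697, and 264 and 282 reached 1 log2 unit. Leaving out 1 library gave 287 to 355 rises and 243 to 294 falls, and 426 calls held in each of the 6 such fits. For the difference between spleen and marrow (17 and 1), no filter gave 11 and 0, a filter at 10 gave 21 and 2, and a pseudocount of 0.1 gave 21 and 2. A pseudocount of 5 gave 14 and 0, limma without trend and robust moderation 0 and 0, edgeR 29 and 2 with TMM or RLE scaling, and DESeq2 68 and 25. Leaving out 1 of the 12 libraries gave 11 to 23 and 0 to 1. With the replicate number as a block the counts were 446 and 387 in spleen, and 18 and 1 for the difference between tissues. Whether equal numbers pair the libraries is not labelled. Deviations of same-numbered wild-type and vavCre libraries correlated at -0.018, 0.082 and -0.015 across genes. Those of replicate 2 correlated best with their own number, and not every library did. With 3 libraries per group such correlations cannot exclude pairing. Of 248 called genes named by the rule, 79 lost their call without trend and robust moderation, 11 with the block, 12 with edgeR, 2 with DESeq2, and 32 to 52 when 1 library was left out. None of these 248 called genes reversed direction under these alternatives. For named genes without a call, a change of sign was checked only where an alternative called the gene. Where groups held fewer than 3 reads per library (a value of 1.892 in wild type and 2.255 in vavCre), the size of a change is limited by depth, and such limits cover counting error only.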

Other observations

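Further gene groups held a few called members each. Of 32 semaphorins, plexins, ephrins and their receptors 3 rose and 2 fell; the number lower became 0 without wild-type replicate 1 or vavCre replicate 3 and 1 without wild-type replicate 2 or vavCre replicate 1 or 2. Plxnd1, a plexin that binds semaphorins, rose from 615 ± 40.8 to 1113 ± 77.7 (log2 change 0.86 ± 0.18, limma adjusted p = 0.00445). It was the 1 called gene among 22 tested within 1 Mb of Pparg on chromosome 6, a window in which 4.55% were called against 5.52% over all tested genes. Within 5 Mb 2 of 86 genes were called (2.33%), and within 10 Mb 13 of 180 (7.22%). Nrp1, a co-receptor of semaphorins and VEGF, rose from 1425 ± 167 to 2459 ± 253 (log2 change 0.79 ± 0.15, limma adjusted p = 0.00195), a call that was lost by limma without trend and robust moderation (adjusted p = 0.0549).

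Of 30 genes of glycolysis and hypoxia 3 rose and none fell by limma (1 at an unadjusted p under 0.05, 0 by edgeR and 0 by DESeq2); the number higher became 1 without wild-type replicate 1 or 2 or vavCre replicate 1. Pfkfb3, which makes an activator of glycolysis, rose from 99.1 ± 46.0 to 298 ± 47.3 (log2 change 1.66 ± 0.36, limma adjusted p = 0.00786), while the calls of Aldoa (0.53) and Bnip3 (1.20) were lost: Aldoa by limma without trend and robust moderation or without wild-type replicate 1 or 2 or vavCre replicate 1 or 3 (adjusted p from 0.0506 to 0.229), and Bnip3 by limma without trend and robust moderation or without wild-type replicate 1 or 2 or vavCre replicate 1 or 2 (adjusted p from 0.0529 to 0.103). Of 27 immediate early and dissociation stress genes 3 rose and none fell by limma (2 at an unadjusted p under 0.05, 1 by edgeR and 1 by DESeq2), and the 3, Egr1, Gadd45b and Ier3, each lost the call when some single library was left out. Of 32 genes of cholesterol and fatty acid synthesis 1 rose and 1 fell (3.125% each), near the shares over all tested genes (2.98% and 2.54%). The rise was lost with no filter on low values, by limma without trend and robust moderation, with the replicate block, or without any 1 library other than wild-type replicate 1. Vim, vimentin, rose from 1021 ± 146 to 1924 ± 288 (log2 change 0.91 ± 0.16, limma adjusted p = 0.00144), a call that was lost by limma without trend and robust moderation (adjusted p = 0.0511).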
